A study of Mus musculus with 4 samples.

Results

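SOX3 binding was examined around 57 genes of the Wnt signalling pathway, out of 22367 protein-coding genes in the GENCODE vM1 annotation of the mouse genome (mm9). The genes were chosen by name, with earlier results of these data known, and comprised 19 Wnt ligands, 10 frizzled receptors, 2 co-receptors (Lrp5 and Lrp6), 5 R-spondins and Lgr receptors, 9 secreted inhibitors, 8 cytoplasmic components and the 4 nuclear effectors of the TCF/LEF family. Every SOX3 peak that overlapped the gene body or the 50 kb to either side of it, called the window here, was assigned to the gene. SOX3-bound chromatin had been immunoprecipitated from 3 biological replicates of neural progenitor (NP) cells with an antibody raised against human SOX3, and sequenced. The NP cells came from R1, a single mouse embryonic stem cell line, and were differentiated as monolayers for 4 days in medium with N2 and B27 supplements. An input sample without antibody served as the background for peak calling and was not analysed here. Each group thus held the same cells under the same treatment, and the comparisons made were between genes and between replicates rather than between conditions.

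Wnt proteins are secreted lipid-modified ligands that bind frizzled receptors and the co-receptors Lrp5 and Lrp6 on the cell surface. In the canonical branch, receptor binding releases β-catenin (Ctnnb1) from a cytoplasmic complex of Axin, Apc and Gsk3b, and β-catenin then enters the nucleus and acts with TCF/LEF proteins on target genes. R-spondins and Lgr receptors strengthen the signal, and secreted inhibitors of the Dkk, Sfrp and Wif families weaken it. In the developing nervous system the pathway is known for its part in patterning along the head-to-tail axis and in the growth of progenitors. SOX3 belongs to the SOXB1 group of HMG-box transcription factors, which are expressed in neural progenitors.

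The deposited lists held 18816 peaks in replicate 1, 8096 in replicate 2 and 40543 in replicate 3. Each peak carried a score equal to 10 times the negative log10 of its MACS p-value, so that the calling threshold of 1e-05 corresponded to a score of 50. Because the score depends on library depth, which the lists do not give, a score was compared between replicates only as its percentile, the percentage of peaks in the same list with a lower score, or as its rank, with 1 for the highest score. Bases that lay in peaks of all 3 replicates at once made up a common site (1 bp was enough), and the genome held 5537 such sites. The percentile also depends on the length of the list. Over all common sites its median was 82.3, 64.9 and 92.8 in replicates 1, 2 and 3. A low percentile in the short list of replicate 2 therefore does not by itself show weaker binding there. Replicates 2 and 3 often shared peak boundaries, since of their 7815 overlapping pairs of peaks 2699 (34.5%) began at the same base, as did 17 of 57 pairs (29.8%) in the windows of the Wnt pathway genes, and counts without replicate 2 are therefore given as well. Peak lists hold no expression values, so the identity of the NP cells could not be checked against marker genes.

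The windows of the 57 genes covered 7.96 Mb and contained 126, 60 and 187 peaks in the lists of replicates 1, 2 and 3. Merging overlapping peaks gave 252 regions. All 3 replicates shared 43 of these regions, 17 were found in replicates 1 and 3, 13 in replicates 2 and 3, and 1 in replicates 1 and 2. Replicate 3 alone contributed 112 regions and replicate 1 alone 65, whereas only 1 region rested on replicate 2 alone. The order was the same genome-wide, where 5358 of 51271 regions were shared by all replicates and 30116, 10617 and 196 rested on replicate 3, 1 or 2 alone. The regions shared by all replicates contained 44 common sites, of which 2 lay in the windows of a pair of neighbouring ligand genes each (Wnt6 with Wnt10a, and Wnt1 with Wnt10b). Across these 44 sites the scores of replicates 2 and 3 had a Spearman correlation of 0.926, against 0.79 for replicates 1 and 2 and 0.781 for replicates 1 and 3, as a description over sites that come from the same 3 libraries. Over all common sites the order was the same, at 0.896, 0.667 and 0.646.

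A peak of any replicate was found in the window of 54 of the 57 genes (94.7%, 95% Wilson confidence interval 85.6 to 98.2%), where 90.6% of all protein-coding genes had one, so this count was near the background. A common site was found for 32 genes (56.1%, 43.3 to 68.2%), against 28.7% of all protein-coding genes. When replicate 2 was set aside and a site needed only replicates 1 and 3, 36 genes had one (63.2%), against 39.3% of all genes. At a p-value of 1e-10 or less in each list, 20 of the 57 genes had one, against 15.2% of all genes. More than 1 common site lay in the windows of 9 genes (15.8%, 8.54 to 27.4%), an interval that included the 8.98% of all genes. These shares are given beside the background without a test, because neighbouring genes share sites and the genes were not drawn at random.

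Gene length differs between the list and the genome, with a median of 26.6 kb for the 57 genes and 15.4 kb for all protein-coding genes, and a longer gene has a wider window. Among genes with windows under 150 kb, 24 of 41 Wnt pathway genes had a common site (58.5%, 43.4 to 72.2%), against 26.1% of all such genes. Among those with windows of 150 kb or more the count was 8 of 16 (50%, 28 to 72%), against 38.0%, which lay inside the interval. Per megabase of window, the 57 genes had 5.53 common sites and all protein-coding genes 2.58. The share above the background was thus seen in the short windows and could not be told from it in the long ones.

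**Figure D1:**
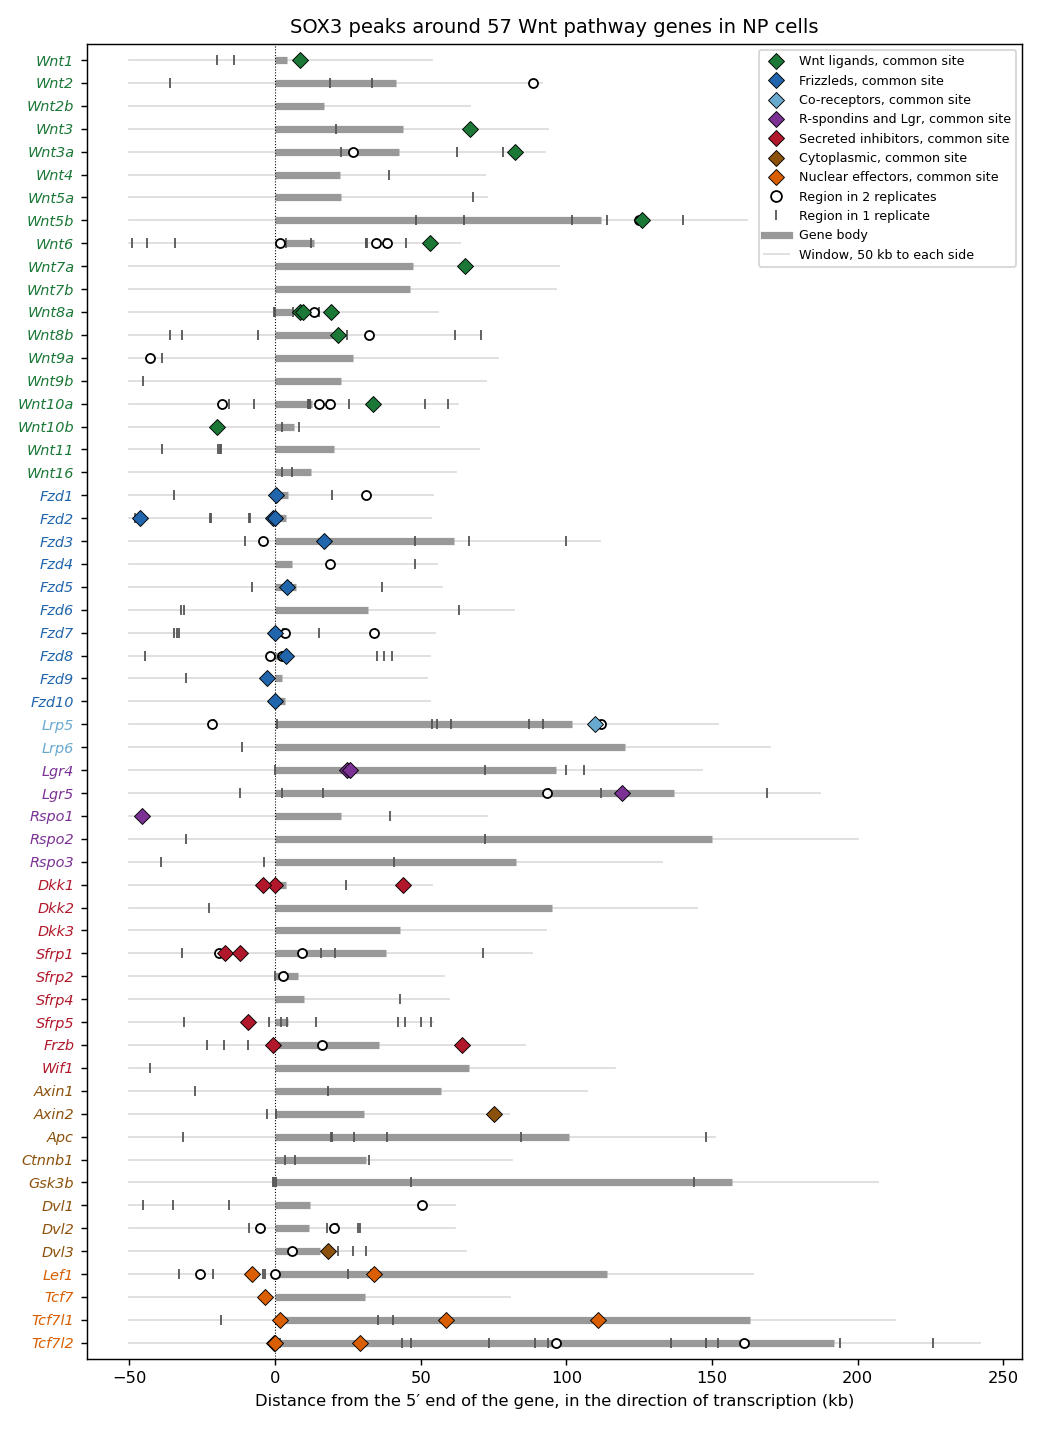
Peaks around the 57 genes, with each gene on a line and the distance from its 5′ end in kb on the horizontal axis, positive in the direction of transcription. Diamonds are the 44 common sites coloured by class (sites in the windows of 2 genes are drawn for both), open circles are regions found in 2 replicates, ticks are regions of 1 replicate, grey bars are gene bodies and thin lines the windows; most frizzled sites lie near the 5′ end, whereas the ligand sites lie beyond the 3′ end of a ligand gene (the Wnt1 site also appears upstream of Wnt10b).

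Counts are given by class without a test between classes. All 4 nuclear effectors had a common site in the window (95% Wilson interval 51 to 100%), as did 8 of 10 frizzleds (80%, 49 to 94.3%), 3 of 5 R-spondins and Lgr receptors, 10 of 19 ligands (52.6%, 31.7 to 72.7%), 1 of 2 co-receptors, 4 of 9 secreted inhibitors (44.4%, 18.9 to 73.3%) and 2 of 8 cytoplasmic components (25%, 7.15 to 59.1%). The ligand count depended on distant sites, being 3 of 19 with 10 kb to each side and also 3 by nearest start, near the 14% and 16.5% of all protein-coding genes under these settings, and at a p-value of 1e-10 or less it was 6, with 4 for frizzleds, where 15.2% of all genes had a site. The intervals of the co-receptors, the R-spondins and Lgr receptors (23.1 to 88.2%), the inhibitors and the cytoplasmic components included the 28.7% of all protein-coding genes, and these classes were not told apart from the background. A common site within 2000 bp of a transcription start site of the gene, called a promoter site here, was present for 8 of the 57 genes (14%, 7.29 to 25.3%), against 4.80% of all protein-coding genes. Of these 8 genes, 4 were frizzleds (Fzd1, Fzd2, Fzd7 and Fzd10), 2 were secreted inhibitors (Dkk1 and Frzb) and 2 were nuclear effectors (Tcf7l1 and Tcf7l2). None of the 19 ligands had a promoter site (0%, 0 to 16.8%), which is near the background, and the share of frizzleds was 40% (16.8 to 68.7%).

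A common site with its middle inside the gene was present for 9 genes (15.8%), against 7.44% of all genes. These were Fzd1, Fzd3, Fzd5, Lgr4, Lgr5, Dkk1, Lef1, Tcf7l1 and Tcf7l2. The interval for the ligands, 0 of 19 (0 to 16.8%), included the background share. The density of common sites was 10 per Mb in the windows of the nuclear effectors, 8.87 for frizzleds, 6.64 for secreted inhibitors, 4.77 for ligands, 4.04 for R-spondins and Lgr receptors, 2.37 for co-receptors and 1.64 for cytoplasmic components. The median distance from a site to the nearest start of its gene was 1738 bp for frizzleds, 8021 bp for nuclear effectors, 10566 bp for inhibitors and 20444 bp for ligands. These classes differ in gene length, with medians of 4.59, 138, 35.7 and 22.2 kb in the same order, and the distances were not adjusted for it. The gene with the nearest start to the site was of the same class for 9 of 10 frizzled sites, 8 of 9 nuclear effector sites and 7 of 8 inhibitor sites, but for only 4 of 10 ligand sites.

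**Figure D2:**
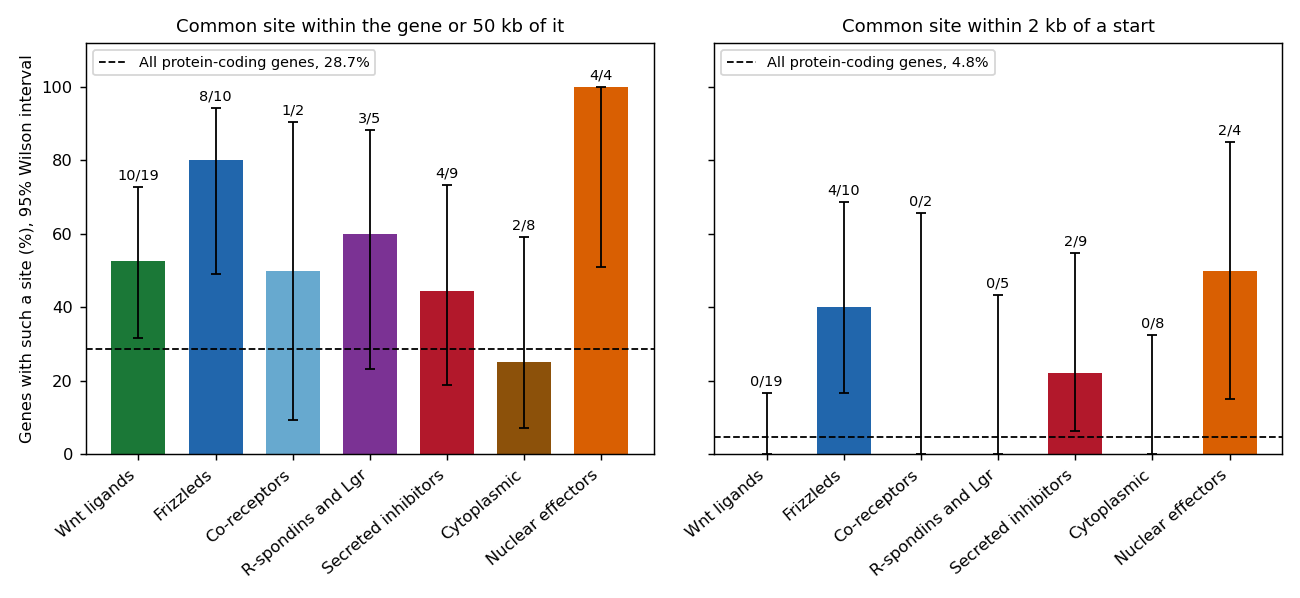
Percentage of the genes of each class with a common site in the window (left) and within 2 kb of a start (right). Bars start at 0 and carry the number of genes, vertical lines are 95% Wilson intervals for counting error only, and the dashed lines mark all protein-coding genes (28.7% and 4.80%); the nuclear effectors and frizzleds have the highest bars in both panels.

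The ligand sites all lay downstream of a ligand gene, between 6588 and 82505 bp from its nearest start, and none lay in the promoter, exons or introns of a ligand. The highest scores in the whole set belonged to a site centred 33514 bp downstream of the start of Wnt10a and 53138 bp downstream of that of Wnt6. These neighbouring genes code for ligands of epithelial development, and the site lay beyond both. This 800 bp site (chr1:74871204-74872003) had a score of 1944 in replicate 1, 1241 in replicate 2 and 2485 in replicate 3, with ranks of 36, 34 and 38. It thus stood in the top percentile of every list, at 99.8, 99.6 and 99.9%. The nearest start belonged to neither ligand but to Cdk5r2, 29905 bp away, which codes for an activator of the kinase Cdk5 in neurons. It held 3 copies of AACAAA or AACAAT, a core of the SOX consensus, and 2 of GACAAA or GACAAT, another form of it (these 6-base words are called SOX words here, and were counted on both strands).

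Wnt8b, a ligand gene expressed in the forebrain, had 1 common site 21679 bp downstream of its start and just past its 3′ end (chr19:44589282-44590000). The site was 719 bp wide, with scores of 745, 696 and 1319 in replicates 1, 2 and 3 and percentiles of 98.4, 98.7 and 99.7. Its sequence held 6 copies of AACAAA or AACAAT, more than any other of the 44 sites. Its nearest start was that of Sec31b, a gene for a vesicle coat protein, at 5442 bp.

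Wnt8a, a ligand gene active in the early embryo and near the hindbrain, was the only ligand with more than 1 common site. Its 3 sites on chromosome 18 lay 8462, 9552 and 19209 bp downstream of its start. The middle one was the strongest, with scores of 591, 238 and 401 and percentiles of 97.4, 89.1 and 97.5. The nearest of them scored 182, 117 and 197 (percentiles of 82.8, 68.7 and 93.2), and the farthest, which lay closer to the start of Nme5, scored 285, 138 and 240 (91.1, 75.5 and 95). All 3 sites held AACAAA or AACAAT, and the farthest also held CTTTGAT, a word bound by TCF/LEF proteins. The Wnt8a promoter carried 2 regions of replicate 1 alone, with scores of 68.9 and 128.

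The sites of Wnt3, Wnt3a, Wnt5b and Wnt7a each had their lowest percentile in replicate 2. Wnt3, a ligand gene of the neural tube and of gastrulation, had 1 common site 66925 bp downstream of its start, inside an intron of Nsf (chr11:103702272-103702506). Its scores were 256, 71.4 and 84.5, and its percentiles 89.5, 40.7 and 73.4, so replicate 2 placed it in the lower part of its list. The site of Wnt3a, whose ligand acts in the posterior embryo and the dorsal forebrain, lay 82505 bp downstream and 74 bp from the start of 2310033P09Rik, and scored 129, 69.4 and 89. That of Wnt5b lay 1090 bp from the start of Adipor2, an adiponectin receptor gene, and was among the weakest, with scores of 60.9, 52.2 and 80.2 and a percentile of 7.21 in replicate 2. Wnt7a, a ligand gene of the brain and limb, had a site of only 68 bp, 18850 bp from its nearest start, with scores of 116, 59.3 and 138. It was the narrowest of the 44 sites.

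Of the 9 ligands without a common site, Wnt2b and Wnt7b had no peak in any list. Peaks of replicate 3 alone were found for Wnt4 (top score 50.5), Wnt5a (53.8) and Wnt16 (97.4), and a single peak of replicate 1 for Wnt9b (60.9). Wnt11, which acts mainly in non-canonical signalling, had 2 peaks in replicate 1 (top score 290) and 2 in replicate 3 (top score 82.6), but none of them overlapped. Wnt2 had 1 region in replicates 1 and 3, with scores of 229 and 88.7, inside a neighbouring gene, St7. Wnt9a shared with Wnt3a a region in an intron of Wnt3a that scored 327 in replicate 1 and 53.2 in replicate 3 and was absent from the list of replicate 2. Including Wnt2 and Wnt9a, 12 of 19 ligands had a site of replicates 1 and 3 (63.2%, 41 to 80.9%), against 39.3% of all genes. The start region of Wnt6 carried a region of replicates 2 and 3, 1538 bp downstream of the start, with scores of 54.9 and 120.

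Wnt1, the ligand gene of the midbrain-hindbrain boundary, was the ligand with the closest common site. It lay 6588 bp from the nearest annotated start of Wnt1, past its 3′ end, and 20129 bp upstream of its neighbour Wnt10b (chr15:98628473-98628947). The scores were 1154, 459 and 756, with percentiles of 99.4, 96.5 and 99.1. Wnt10b had no other region of more than 1 replicate. The central 300 bases of this site are printed because it was the only ligand site with a percentile of 90 or more in every list whose nearest start was a ligand's; here and below the sequence is that of the plus strand of NCBIM37 (the same assembly as mm9), 5′ to 3′, and capitals mark SOX words on either strand.
Wnt1 (chr15:98628560-98628859): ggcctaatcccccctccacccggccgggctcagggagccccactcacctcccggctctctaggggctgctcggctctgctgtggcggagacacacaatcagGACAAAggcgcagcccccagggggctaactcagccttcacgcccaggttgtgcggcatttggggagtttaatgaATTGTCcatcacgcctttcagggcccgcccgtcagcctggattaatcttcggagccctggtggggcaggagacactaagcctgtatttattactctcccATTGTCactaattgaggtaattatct
In the printed stretch the capitals are 3 copies of GACAAA or GACAAT, of which a pair reads on the minus strand (as ATTGTC), and the base composition of the whole site was 62.3% G and C.

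The frizzled sites lay at promoters, in genes and between genes. The strongest was at Fzd8, the gene of a receptor expressed in the anterior neural plate. This 829 bp site on chromosome 18, the widest of the 44, was centred 3596 bp downstream of the start, just past the end of this short gene, which it overlapped. It scored 1422, 974 and 1962, with ranks of 78, 46 and 51. It held 3 copies of AACAAA or AACAAT, 2 of GACAAA or GACAAT and 1 CTTTGAT. Fzd8 also had a promoter region of replicates 1 and 3 (scores of 104 and 74, 1762 bp upstream) and an exonic region of replicates 2 and 3 (89.2 and 140).

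Fzd5, a receptor gene of the developing eye, had a common site in its exon, 4065 bp from the start (chr1:64780107-64780411), and this was the only one of the 44 sites in an exon outside the promoters, which took precedence over exons. Its scores were 134, 158 and 198, with percentiles of 74.2, 79.9 and 93.3. Fzd9 had a site 2741 bp upstream (chr5:135729743-135729938), which scored 205, 93.4 and 294. Neither Fzd4 nor Fzd6 had a common site. For Fzd4, whose receptor also binds norrin, there was 1 region of replicates 2 and 3, 19029 bp downstream, with scores of 59.6 and 56.5. For Fzd6, the close relative of Fzd3, a peak of replicate 1 scored 76.8, 31053 bp upstream, and 2 peaks of replicate 3 scored up to 60.5, with no overlap between the lists.

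Fzd3, a receptor gene required for the growth of axon tracts, had the strongest common site inside a frizzled gene. The site lay in intron 2 of 6, 16809 bp from the start (chr14:65864147-65864692), with scores of 770, 590 and 1269 and percentiles of 98.5, 98.1 and 99.7. It was the site with the lowest G and C content, 38.3%. The central 300 bases are shown because they hold all 4 of its SOX words.
Fzd3 (chr14:65864270-65864569): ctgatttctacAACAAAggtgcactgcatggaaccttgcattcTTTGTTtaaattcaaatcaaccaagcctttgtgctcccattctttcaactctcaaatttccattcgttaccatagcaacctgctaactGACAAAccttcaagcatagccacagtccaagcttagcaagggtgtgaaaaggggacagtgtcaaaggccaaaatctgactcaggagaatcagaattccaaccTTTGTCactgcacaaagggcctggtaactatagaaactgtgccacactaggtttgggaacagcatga
A second region, found in replicates 1 and 3 only, lay 4045 bp upstream of Fzd3 and 194 bp from the start of Fbxo16, with scores of 189 and 153.

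Promoter sites were found at Fzd1, Fzd2, Fzd7 and Fzd10, and the first 3 of these encode closely related receptors. At Fzd2 there were 2 promoter sites. One lay 735 bp upstream (chr11:102464856-102465165), with scores of 322, 191 and 329 and percentiles of 92.5, 84.6 and 96.7, and the other lay 26 bp upstream, with scores of 436, 89.1 and 105 and percentiles of 95.6, 55.2 and 82.7. The replicates thus ordered these neighbouring sites differently, with the site at the start higher in replicate 1 and the upstream site higher in replicates 2 and 3. A further Fzd2 site, 46198 bp upstream, lay within 2000 bp of the start of Gpatch8 and scored 269, 192 and 289.

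The other frizzled promoter sites were weaker. At Fzd7 the site was centred 7 bp upstream of the start (chr1:59538893-59539076) and scored 168, 54.5 and 81. Its percentiles were 81.1, 14 and 71.2, and its ranks 3565, 6958 and 11683. At Fzd1 the site lay 158 bp downstream of the start (chr5:4757990-4758127) and scored 78.3, 65.3 and 95.2. At Fzd10 it lay 158 bp upstream (chr5:129106458-129106664) and scored 132, 70.1 and 86.2. The Fzd10 site held 1 GACAAT. It also held 1 copy of a joined SOX/POU word, a looser pattern in which a short SOX half-site precedes the octamer without its last base, so that neither a whole SOX word nor a whole octamer is needed. None of the sites at Fzd1, Fzd2 and Fzd7 held a SOX word. The part of the Fzd7 site that precedes the first exon is shown for comparison with the sequences that hold such words, and was chosen after its values were seen.
Fzd7 (chr1:59538893-59538990): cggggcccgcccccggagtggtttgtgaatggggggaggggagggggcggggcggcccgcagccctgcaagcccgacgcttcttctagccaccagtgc
It is rich in G and C, with 75% over the whole Fzd7 site. Fzd7 also had an exonic region of replicates 2 and 3, 3415 bp downstream, with scores of 119 and 186, higher than those of the common site in these lists. This region held 3 copies of AACAAA or AACAAT and 1 of GACAAA or GACAAT.

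Among the co-receptors, Lrp5 had 1 common site 110281 bp from its start and 535 bp from the start of Ppp6r3, a phosphatase subunit gene (chr19:3576202-3576365). It scored 155, 50.4 and 57.1, and its percentile of 1.32 in replicate 2 was the lowest of the 44 sites. Lrp6 had a single peak, in replicate 3 alone, with a score of 74.6. Neither co-receptor had a common site in the gene or at its promoter.

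Lgr4, the gene of an R-spondin receptor, had a pair of common sites in intron 1 of 17, centred 24.7 and 25.7 kb from its 5′ end. The stronger, chr2:109783279-109783682, scored 518, 504 and 830, with percentiles of 96.6, 97.2 and 99.3. The other, chr2:109782318-109782611, scored 411, 146 and 278, with percentiles of 95, 77.4 and 95.9. Both are shown because each held at least 2 copies of AACAAA or AACAAT, read on either strand.
Lgr4 stronger site, central 300 bases (chr2:109783331-109783630): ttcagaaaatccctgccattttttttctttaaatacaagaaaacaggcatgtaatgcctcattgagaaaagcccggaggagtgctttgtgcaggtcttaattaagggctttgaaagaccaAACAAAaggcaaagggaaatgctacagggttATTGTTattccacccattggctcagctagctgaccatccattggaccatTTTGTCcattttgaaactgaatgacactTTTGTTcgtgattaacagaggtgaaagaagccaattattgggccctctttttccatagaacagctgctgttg
Lgr4 second site (chr2:109782318-109782611): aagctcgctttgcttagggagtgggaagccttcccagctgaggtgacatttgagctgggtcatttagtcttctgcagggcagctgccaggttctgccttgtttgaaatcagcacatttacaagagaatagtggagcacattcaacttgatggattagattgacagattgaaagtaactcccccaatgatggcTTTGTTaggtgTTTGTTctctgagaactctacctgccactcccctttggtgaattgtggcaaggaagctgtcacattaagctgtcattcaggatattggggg
Lgr5, which marks stem cells of several tissues, had a site in intron 8 of 17, 119 kb from its 5′ end (chr10:114906129-114906353), with scores of 112, 104 and 172 and percentiles of 67.6, 62.8 and 91.8. This site held no SOX word but 1 POU octamer (ATGCAAAT).

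Among the R-spondins, the secreted partners of the Lgr receptors, only Rspo1 had a common site. It lay 45613 bp upstream of Rspo1 and 1506 bp from the start of Cdca8, a cell division gene (chr4:124617915-124618207), and scored 130, 248 and 204. Its percentiles were 73, 89.7 and 93.6, and unlike at most sites the lowest of them was that of replicate 1. The stretch is a tandem repeat with a period of 25 bp and 11.7 copies, whose unit in lower case is tcagcaggctgtataattcacgggg, and 100% of its 50-base sequences occur more than once in the genome. Rspo2 and Rspo3 had 2 and 3 peaks, all in replicate 3, with top scores of 61 and 56.2.

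Of the secreted inhibitors, Dkk1, Sfrp1, Sfrp5 and Frzb had common sites. Dkk1, whose protein blocks Lrp5 and Lrp6 and is needed for head formation, had 3. The first lay 69 bp downstream of its start (chr19:30624014-30624159) and scored 149, 59.9 and 103. The second lay 4264 bp upstream and scored 109, 57.7 and 66.4. The third lay 43969 bp downstream (chr19:30580036-30580337) and scored 149, 102 and 161, with percentiles of 77.3, 62.1 and 91.1. Each of the 3 Dkk1 sites held 1 SOX word, and the farthest from the gene stood highest in replicates 2 and 3.

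Sfrp1 and Frzb code for secreted frizzled-related proteins, which bind Wnt ligands outside the cell. Sfrp1 had sites 11939 and 17247 bp upstream of its start. The nearer scored 296, 225 and 356, with percentiles of 91.5, 88 and 97.1, the highest among the inhibitors in replicates 2 and 3, and the farther scored 142, 84.6 and 149. Frzb had a promoter site 832 bp upstream (chr2:80288430-80288797) with scores of 399, 122 and 120, and a weak site 55133 bp from its nearest start with scores of 55.7, 67.1 and 68.4, of which 77% of the 50-base sequences were present more than once in the genome. The sequences shown are the strongest sites of Frzb and of Dkk1, cut to 300 bases.
Frzb (chr2:80288464-80288763): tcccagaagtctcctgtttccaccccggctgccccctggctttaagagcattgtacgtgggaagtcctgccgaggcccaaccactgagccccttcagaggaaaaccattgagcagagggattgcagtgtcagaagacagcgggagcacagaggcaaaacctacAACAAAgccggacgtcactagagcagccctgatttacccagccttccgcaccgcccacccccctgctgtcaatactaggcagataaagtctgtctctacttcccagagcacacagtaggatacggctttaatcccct
Dkk1 distal site (chr19:30580037-30580336): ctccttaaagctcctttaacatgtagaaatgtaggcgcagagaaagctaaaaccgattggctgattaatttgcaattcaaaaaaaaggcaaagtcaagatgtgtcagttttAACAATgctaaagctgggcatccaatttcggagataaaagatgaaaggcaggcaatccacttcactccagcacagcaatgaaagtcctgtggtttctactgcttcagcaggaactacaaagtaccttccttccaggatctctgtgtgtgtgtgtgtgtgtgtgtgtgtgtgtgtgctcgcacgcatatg
The Frzb and Dkk1 stretches hold 1 SOX word each. Sfrp5 had a site 9193 bp upstream with scores of 74, 81.1 and 75.8, percentiles of 47.5, 49.2 and 66.8, and no SOX word.

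Of the inhibitors without a common site, Dkk3 had no peak in any list, and Dkk2 (69.5), Sfrp4 (70.5) and Wif1 (52.1) had 1 peak each, in replicate 3 alone. Sfrp2, which is expressed in neural progenitors, had an intronic region of replicates 1 and 3 with scores of 133 and 81.3, 2357 bp downstream of its nearest start, and a promoter region of replicate 1 alone with a score of 195, 8 bp upstream. With Sfrp2, 5 of 9 inhibitors had a site of replicates 1 and 3 (55.6%, 26.7 to 81.1%), an interval that included the 39.3% of all genes.

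The cytoplasmic components had the lowest density of common sites (1.64 per Mb, against 2.58 for all protein-coding genes) and the lowest share of genes with one (25%, near the 28.7% of all genes). Axin2, a scaffold of the β-catenin destruction complex and a common Wnt target, had 1 weak site 51783 bp from its nearest start (chr11:108856639-108856797), with scores of 66.1, 58.2 and 127. It is shown whole as the only site of the class whose nearest start was a member's.
Axin2 (chr11:108856639-108856797): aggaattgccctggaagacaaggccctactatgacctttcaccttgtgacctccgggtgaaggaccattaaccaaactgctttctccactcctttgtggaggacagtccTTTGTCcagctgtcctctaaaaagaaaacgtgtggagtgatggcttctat
Dvl3, which relays the signal from frizzled receptors, had a site 18123 bp downstream that lay 170 bp from the start of Ap2m1, a clathrin adaptor gene, and scored 391, 189 and 414. Its relatives Dvl1 and Dvl2 had none. Dvl2 had 2 regions of replicates 1 and 3, 1 of them with scores of 295 and 95.6. Dvl1 had the only region of replicates 1 and 2 in the windows, inside Acap3, with scores of 312 and 54.7, of which 90% of the 50-base sequences occur more than once in the genome.

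Ctnnb1, Gsk3b, Apc and Axin1, the core of the destruction complex and its substrate, had between 2 and 7 regions each, all of a single replicate. At the Gsk3b promoter 1 peak of replicate 3 scored 109 and 2 peaks of replicate 1 scored 128 and 52.8, at separate positions. A peak of replicate 1 with a score of 74 lay 787 bp from an annotated start of Ctnnb1, 3.4 kb from the 5′ end of the gene. A peak of replicate 3 with a score of 50.5 lay 351 bp from an annotated start of Apc, 27.1 kb from its 5′ end. These peaks were not shared between replicates, and replicate 1 in general contributed more promoter peaks of its own. Of the 65 regions of replicate 1 alone, 22 lay within 2000 bp of a start of any gene (33.8%, with 30.1% genome-wide), against 13 of the 112 regions of replicate 3 alone (11.6%, with 9.03% genome-wide).

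The TCF/LEF genes, which encode the DNA-binding partners of β-catenin, were the only class in which each gene had a common site. Their windows were wide, at 214 kb for Lef1, 131 kb for Tcf7, 263 kb for Tcf7l1 and 292 kb for Tcf7l2. Of all protein-coding genes with windows of 150 kb or more, 38.0% had a common site. Lef1 had a site 8021 bp upstream of its start (chr3:130805170-130805566) with scores of 446, 397 and 692 and percentiles of 95.7, 95.3 and 98.9. A second site lay in intron 3 of 11, 33.9 kb from the 5′ end (chr3:130847205-130847446), with scores of 209, 126 and 160. At the Lef1 promoter itself there was only a weak region of replicates 1 and 3, 142 bp upstream, which scored 53.5 and 50.4. The Lef1 sites thus flanked the start at a distance.

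Tcf7 (TCF1) had 1 peak in each list and nothing else in its window. The 3 peaks met in a common site 3416 bp upstream of its start (chr11:52099885-52100308), which scored 849, 581 and 1051, with ranks of 232, 158 and 175. In its middle an AACAAT on the minus strand directly adjoined a POU octamer, ATGCAAAT, on the plus strand, an arrangement that also matches the joined SOX/POU word. That word occurred in 1 of 16 sites at promoters of any gene (Fzd10, 6.25%) and 1 of 28 elsewhere (Tcf7, 3.57%), against 3.85% and 7.11% of all common sites, so these counts were near the background. The central 300 bases of the Tcf7 site are shown for this arrangement, and those of the upstream Lef1 site as the strongest of that gene, with SOX words and the octamer in capitals.
Tcf7 (chr11:52099947-52100246): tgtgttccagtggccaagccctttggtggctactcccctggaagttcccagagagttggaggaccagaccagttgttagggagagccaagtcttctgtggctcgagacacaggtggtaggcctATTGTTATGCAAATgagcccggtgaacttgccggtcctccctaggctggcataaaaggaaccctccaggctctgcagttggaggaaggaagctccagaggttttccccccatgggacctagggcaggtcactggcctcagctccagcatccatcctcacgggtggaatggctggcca
Lef1 (chr3:130805218-130805517): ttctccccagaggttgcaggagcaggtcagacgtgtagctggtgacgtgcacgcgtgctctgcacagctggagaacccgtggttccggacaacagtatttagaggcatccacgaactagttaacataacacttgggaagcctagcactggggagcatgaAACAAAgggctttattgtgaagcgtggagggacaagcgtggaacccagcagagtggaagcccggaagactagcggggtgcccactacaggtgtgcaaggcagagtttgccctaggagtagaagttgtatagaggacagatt
The printed Lef1 stretch holds a single SOX word, an AACAAA.

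**Figure D3:**
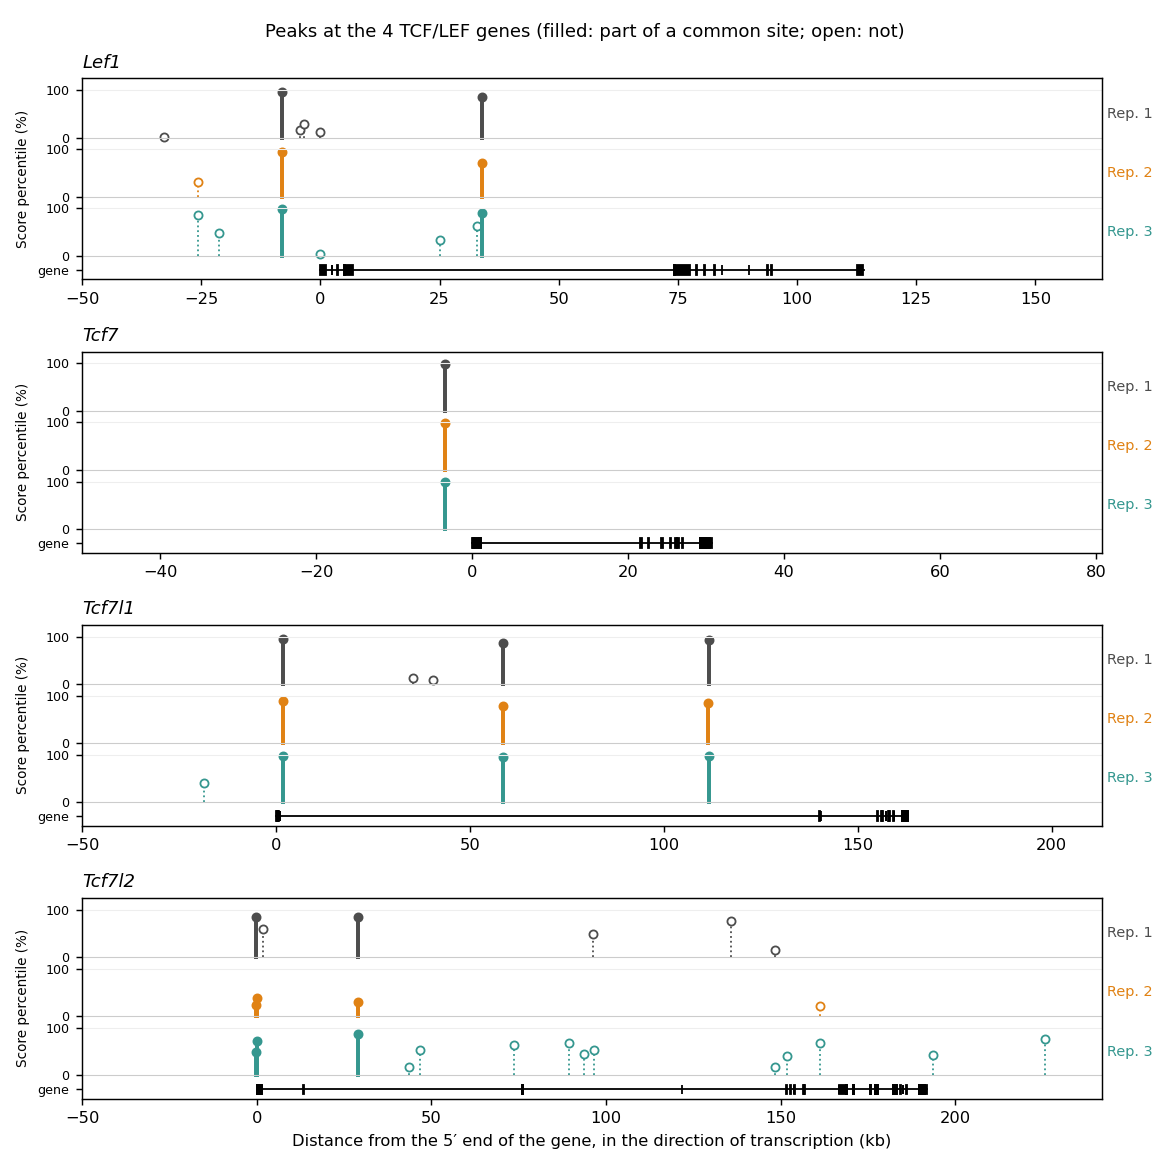
Peaks at the 4 TCF/LEF genes, with the distance from the 5′ end of the gene in kb on the horizontal axis and the percentile of the score within its own list (0 to 100%) as the height of each stem, on 1 track per replicate. Filled symbols are peaks that are part of a common site, open symbols are not, and black boxes are exons; Tcf7 has 1 peak per list at 1 position, whereas Tcf7l2 has 14 peaks in replicate 3, most of them open.

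Tcf7l1 (TCF3), a repressor in the absence of the signal, had 3 common sites, all in its intron 3 of 12 as counted in the transcript with the most exons. The first lay 757 bp downstream of an annotated start and 1.7 kb from the 5′ end of the gene (chr6:72737395-72737710), and scored 427, 236 and 384, with percentiles of 95.4, 88.9 and 97.4. The others lay 58.7 and 111 kb from the 5′ end (chr6:72680440-72680747 and chr6:72627622-72627936), and scored 206, 154 and 275 and then 323, 193 and 308. All 3 sites had percentiles of at least 79.1 in every list. The start site is shown, with its pair of SOX words in capitals, as the strongest promoter site by its lowest percentile.
Tcf7l1 (chr6:72737403-72737702): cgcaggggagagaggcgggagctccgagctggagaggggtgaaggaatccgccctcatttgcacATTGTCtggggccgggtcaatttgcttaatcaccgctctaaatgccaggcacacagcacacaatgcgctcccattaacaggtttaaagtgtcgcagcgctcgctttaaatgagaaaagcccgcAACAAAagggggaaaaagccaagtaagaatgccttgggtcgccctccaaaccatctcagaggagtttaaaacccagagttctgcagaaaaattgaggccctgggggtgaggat

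Tcf7l2 (TCF4) had sites that stood low in replicate 2. Of its 3 common sites, 2 lay at the promoter, 320 bp upstream and 10 bp downstream of a start (chr19:55815882-55816079 and chr19:55816273-55816366). They were covered by the same peak of replicate 1, with a score of 202, but by separate peaks in the other lists, with scores of 59 and 69.5 in replicate 2 and 63.3 and 83.5 in replicate 3. The third lay in intron 3 of 15, 29 kb from the 5′ end, and scored 197, 61.8 and 131, with 71.2% of its 50-base sequences present more than once in the genome. All 3 stood between 23.8 and 38.4% in the list of replicate 2, below every site of Lef1, Tcf7 and Tcf7l1, whereas in replicate 1 they stood at 84.5 to 85.1%, close to the intronic site of Lef1 (85.8%) and a site of Tcf7l1 (85.5%). Tcf7l2 also had the largest number of regions of a single replicate, 12, in a window of 292 kb.

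Over all 44 sites, the median percentile was 85.4 in replicate 1, 69.7 in replicate 2 and 92.5 in replicate 3, and over all 5537 common sites it was 82.3, 64.9 and 92.8. Of the 44 sites, 8 (18.2%) had a percentile of 90 or more in every list, against 13.7% of all common sites. These were the sites of Wnt10a and Wnt6, Fzd8, Wnt8b, Fzd3, Tcf7, Lgr4 (1 of 2), Wnt1 with Wnt10b, and Lef1 (1 of 2), and none of them lay at a promoter. The median width was 294 bp, against 260 bp for all common sites. At a promoter of any gene lay 16 sites (36.4%), in introns 9 (20.5%) and between genes 18 (40.9%). Among the 4266 common sites in the windows of all protein-coding genes, which like the 44 had to lie near a gene, these shares were 25.6, 37 and 35.8%. The promoter was that of a Wnt pathway gene for 10 of the 16.

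**Figure D4:**
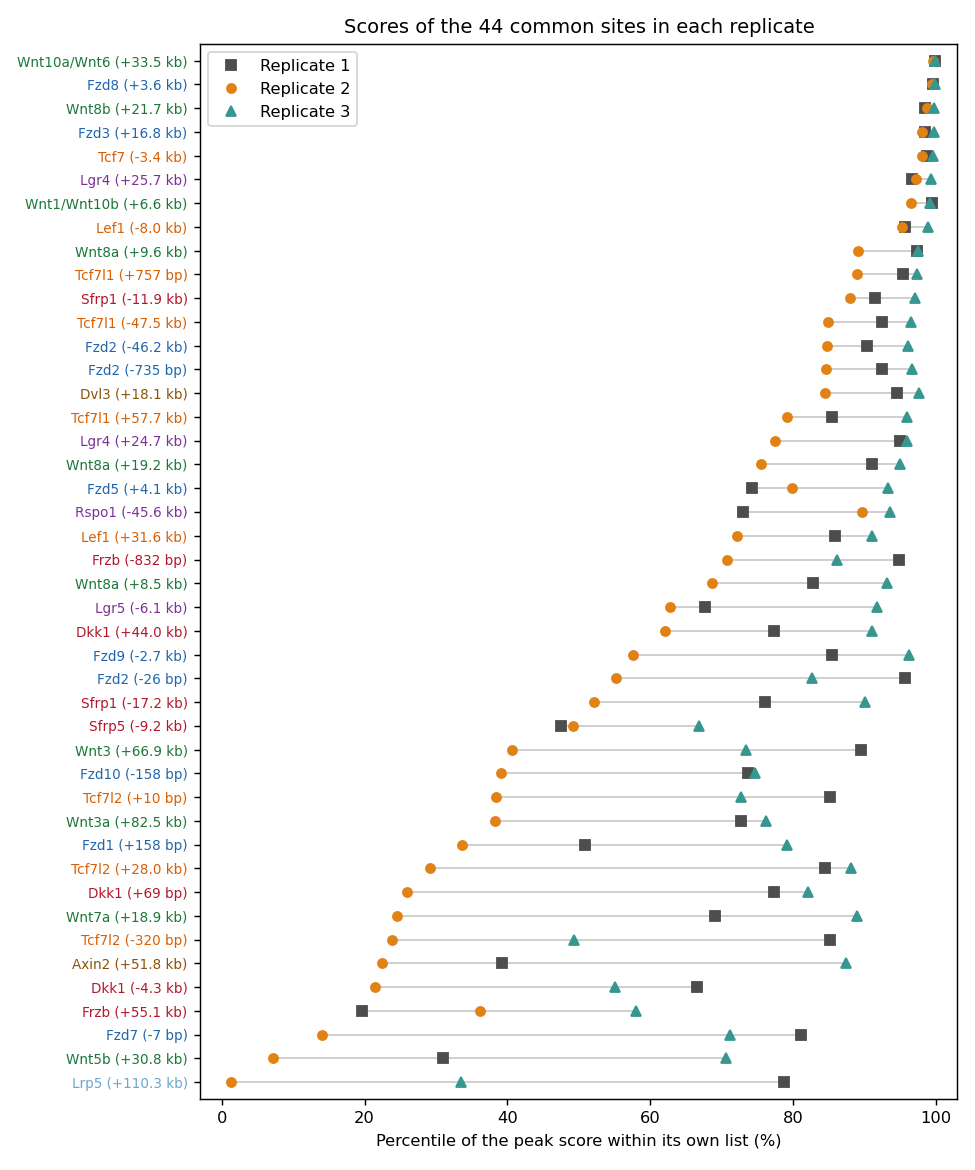
Percentile of the score within its own list for each of the 44 common sites in each replicate, sorted by the lowest of the 3 values. Labels give the gene and the distance to its nearest annotated start (plus for downstream, minus for upstream) and are coloured by class. At 90% or more in every list lie 8 sites, and for most sites the lowest percentile is that of replicate 2, the shortest list.

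The promoter sites were weaker in replicate 2 than the others. At promoters of any gene the median percentiles were 83.1, 38.8 and 80.7 in replicates 1, 2 and 3, and elsewhere they were 87.6, 76.4 and 95.4. Over all common sites the same medians were 81.1, 58.3 and 91.2 at promoters and 82.6, 66.2 and 93.2 elsewhere, so that the order was the same and the distance smaller. The median G and C content was 54.2% at promoters of any gene, 61% at promoters of Wnt pathway genes and 49.2% away from promoters of any gene, against 57.6% at promoters and 48.5% elsewhere for all common sites. A SOX word was present in 7 of 16 promoter sites (43.8%, 95% Wilson interval 23.1 to 66.8%) and in 23 of 28 others (82.1%, 64.4 to 92.1%), against 54.8% and 71.8% of all common sites. The median width was 209 bp at promoters of any gene and 306 bp elsewhere, against 242 and 265 bp for all common sites. A wider site has more room for a word. Whether width, base composition or the properties of replicate 2 had a part in these differences was not tested.

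**Figure D5:**
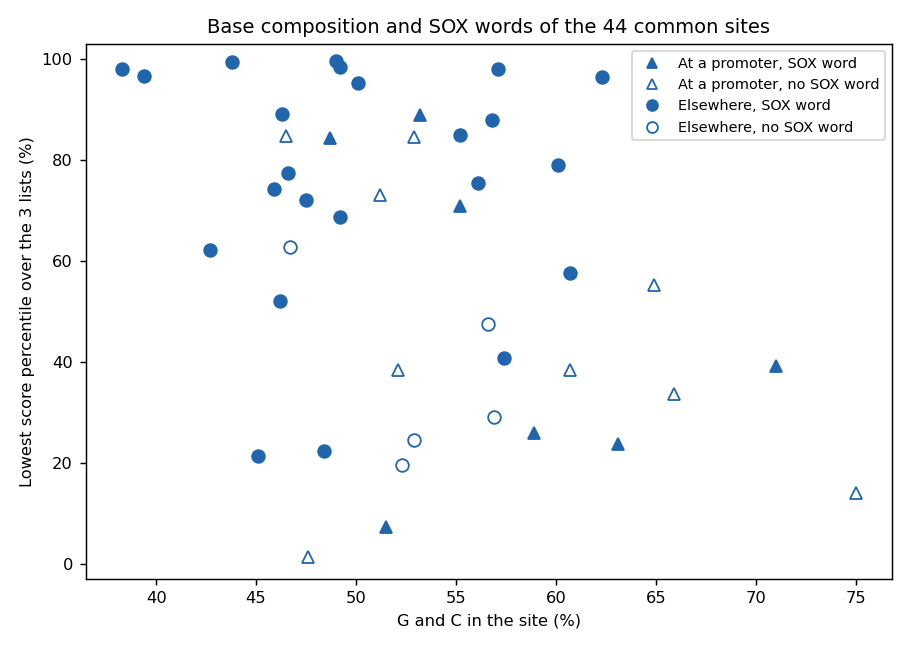
G and C content of each of the 44 common sites (horizontal, %) against its lowest score percentile over the 3 lists (vertical, %). Triangles are sites within 2 kb of a start of any gene and circles are other sites. Filled symbols hold a SOX word on either strand. The 8 sites at 90% or more are all filled circles, and they are 397 to 829 bp wide, against a median of 294 bp. The Fzd7 site is the open triangle at 75% G and C.

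By form, AACAAA or AACAAT was present in 25 of the 44 sites (56.8%, 42.2 to 70.3%), against 53% of all common sites, and in 45.5% of equally wide flanking windows, shifted by 2000 bp, where the flanks of all common sites had 38.8%. In the central 200 bp alone, which are shorter than most sites, the share was 40.9%, against 48.5% of all common sites. GACAAA or GACAAT was present in 15 sites (34.1%, 21.9 to 48.9%), against 38.5% of all common sites. Both shares were near the background. The POU octamer (ATGCAAAT, or with T at the fifth base) was found in 2 sites, those of Tcf7 and Lgr5 (4.55%, 1.26 to 15.1%), against 9.84%. CTTTGAT, the form of the TCF/LEF word that contains no SOX word, was found in 2 sites, those of Fzd8 and Wnt8a (4.55%), against 4.93% of all common sites. The sites of the TCF/LEF genes and of Axin2 held none. A match is a run of letters in these windows and does not show which protein was bound.

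A further list of 58 Wnt pathway genes, for secretion factors, other receptors, further R-spondins, their receptors and regulators, planar polarity proteins, additional inhibitors, cytoplasmic components, nuclear cofactors and common targets, gave similar counts. A common site was present for 30 of them (51.7%, 39.2 to 64.1%, against 28.7% of all genes) and a promoter site for 11 (19%, 10.9 to 30.9%, against 4.80%), and their windows held 5.06 common sites per Mb, against 2.58. The 4 further R-spondin pathway genes, Lgr6, Rspo4, Znrf3 and Rnf43, had no common site. Tnks, a tankyrase gene whose product promotes the breakdown of Axin, had 4 common sites, the most of this list. Vangl2, a planar polarity gene required for neural tube closure, had 3, with sites at its promoter and in the gene. Tle3, a co-repressor that binds TCF/LEF proteins, also had 3. Among common Wnt targets, Ccnd1 and Myc had 1 each in the window, Nrarp and Cdx1 had 1 each at the promoter, Sp5 had peaks but no common site, and Wisp1 had no peak in any list.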

How the data were processed

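SOX3 ChIP-seq peaks of 3 biological replicates were analysed. The authors aligned 50 bp reads to mm9 with Bowtie (1.0.0 in the submitters' processing notes) and called peaks separately in each replicate with MACS (version not given in the sources used here; bandwidth 300, model fold 10 to 30, p-value threshold 1e-05) against the input. The deposited score is the −log10 of the p-value from MACS multiplied by 10, and the authors state no normalization of it between replicates. The lists hold no read counts, so depth is unknown.

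Peaks were assigned to GENCODE vM1 genes on NCBIM37, the same assembly as mm9, and 0 peaks ended beyond a chromosome. A site took the highest overlapping peak score of each list. A site was called mostly multi-copy when over 50% of its 50-base sequences occur more than once in the genome. CTTTGTT was not counted because its reverse complement contains AACAAA. Wilson intervals cover counting error only, and no test was made. Sites were described in full for the 3 best sites of each class by lowest percentile, for sites in a gene or at its promoter, and for Wnt3, Wnt8a, Wnt8b, Fzd3 and Fzd6. Sequences were printed for some described sites, and the others are not reported here. The genes and lists were chosen with earlier results of these data known. On simulated data, 500 of 500 planted common sites were found. Alternatives were a stricter p-value, equal peak numbers, other overlaps and windows, nearest starts, each replicate left out, and multi-copy sites removed. The software was Python 3.11.15, with the packages matplotlib 3.10.9, numba 0.67.0, numpy 2.4.6 and scipy 1.17.1.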

Additional observations from a re-analysis of the deposited data

How the results depend on the processing

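At a stricter p-value threshold of 1e-10, the counts were 20 genes (32 as reported), 25 common sites (44), 6 ligands (10) and 4 frizzleds (8), where 15.2% of all protein-coding genes had a site and 49.1% of all common sites scored 100 or more in each list. With the 8096 highest-scoring peaks of each replicate, 5 frizzleds had a common site (against 21.9% of all protein-coding genes). The ligand count was 3 with windows of 10 kb to each side (against 14% of all protein-coding genes) and also 3 when a site was assigned to the nearest start (against 16.5%). The counts of inhibitors and nuclear effectors stayed within 1.5 times the reported 4 and 4 under every alternative run. Leaving out 1 replicate in turn gave 33 to 36 genes, 46 to 62 sites, 10 to 12 ligands, 8 to 9 frizzleds, 4 to 5 inhibitors and 4 nuclear effectors, which are higher or equal because a site then needs only 2 lists. Windows of 100 kb gave 40 genes (against 42.1% of all protein-coding genes) and 63 sites, and removal of mostly multi-copy sites gave 31 genes and 41 sites. Without replicate 2, 39.3% of all protein-coding genes had a site, beside 36 of the 57 Wnt pathway genes. The background share was not computed without replicate 1 or 3 or without multi-copy sites. Those counts therefore do not show whether the share above the background was kept. The lists give no depth, so an absent peak does not show absent binding, and proximity does not show which gene a site acts on.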
